A study of Capra hircus with 12 samples.

Results

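The glycolytic enzymes followed here are the cytosolic proteins that split glucose into pyruvate and lactate, in secondary hair follicles of the goat (Capra hircus). They were chosen by name. The members are the rows of the deposited tables whose gene name is HK2, GPI, PFKP, ALDOA, TPI1, GAPDH, PGK1, PGAM1, ENO1 or LDHA. The names were picked with earlier results of these data known, so member counts set beside all genes describe and do not test. Of the 10 symbols 9 were found, among 20326 genes in all. The lactate dehydrogenase A gene is spelled LDH-A in the tables (gene ID 100860870, with LDHA as its synonym in the reference gene table), so it is no member by that rule. It is described beside the 9 and is not included in their counts.

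Secondary hair follicles are the skin appendages that grow cashmere, and they pass each year through growth (anagen), regression (catagen) and rest (telogen). RNA was sequenced from follicles of goats aged 1.5 years, with anagen sampled in May and September, catagen in November and December, and telogen in February and March. The 12 libraries make up 4 per stage, a female and a male one for every one of the 6 months, and the labels name no allele or treatment. The labels do not say whether an animal was used in more than one month, so the p-values measure only the spread between these samples. Each stage was sampled only in its own months, so stage and season cannot be told apart in any comparison below.

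Glycolysis takes glucose through a chain of enzymes in the cytosol. The first steps spend ATP to trap and split the sugar, and the later steps return ATP and NADH. Hair follicles are known for converting much of their glucose to lactate even with oxygen present, and lactate production has been linked to the activation of hair follicle stem cells. Hexokinase and phosphofructokinase are the classical control points of the chain, and many of its genes are known targets of the hypoxia-inducible factor HIF-1.

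The deposited values carry the heading TPM (a transcript level scaled by length and library). Library sums ran from 904623 to 1127797, so the values had been rescaled between libraries, and read depth is unknown. Hair shaft and inner root sheath markers were present throughout, with summed levels of 3761 to 21932 per library. Of 19 listed genes 9 were measured, and none of the 9 was at 0 in all libraries of a stage. Transcripts of the mitochondrial genome took 1.83 ± 0.413% of the signal in anagen, 2.99 ± 0.629% in catagen and 9.25 ± 3.18% in telogen (SD, n = 4). Telogen was uneven here, since the March male had 4.63% and its 3 companions 9.88 to 11.8%. Ribosomal protein transcripts took 19.8 ± 2.14%, 23.6 ± 2.01% and 14.7 ± 2.34%. Because a bulk sample adds up all its cells, fewer cells of a type and less RNA per cell cannot be told apart in any value below.

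The enzymes differed widely in level. GAPDH, which oxidises glyceraldehyde 3-phosphate and makes NADH, was highest, with a mean of 664 ± 68.2 over the 12 libraries (SD, n = 12; TPM heading). ALDOA, the aldolase that splits fructose bisphosphate, followed at 490 ± 66.3. TPI1, which interconverts the 2 triose phosphates, stood at 228 ± 50.8 and ENO1, the enolase that makes phosphoenolpyruvate, at 188 ± 39.7. PGAM1 (114 ± 21.1), LDH-A (109 ± 14.0) and PGK1 (108 ± 31.3) lay together. In that order, PGAM1 was above LDH-A in 7 of 12 libraries and LDH-A above PGK1 in 5 of 12, so the 3 levels could not be ranked. GPI, which converts glucose 6-phosphate to fructose 6-phosphate, had 72.5 ± 4.76, the platelet-type phosphofructokinase PFKP 26.4 ± 7.43, and hexokinase 2 (HK2) 5.28 ± 0.852. GAPDH was above ALDOA, ALDOA above TPI1, ENO1 above PGAM1, GPI above PFKP and PFKP above HK2 in 12 of 12 libraries, TPI1 above ENO1 in 11 and PGK1 above GPI in 10. GAPDH thus had 126 times the level of HK2. Together the 9 took 0.193 ± 0.00907% of the signal in anagen, 0.196 ± 0.0120% in catagen and 0.179 ± 0.0208% in telogen (SD, n = 4).

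**Figure D1:**
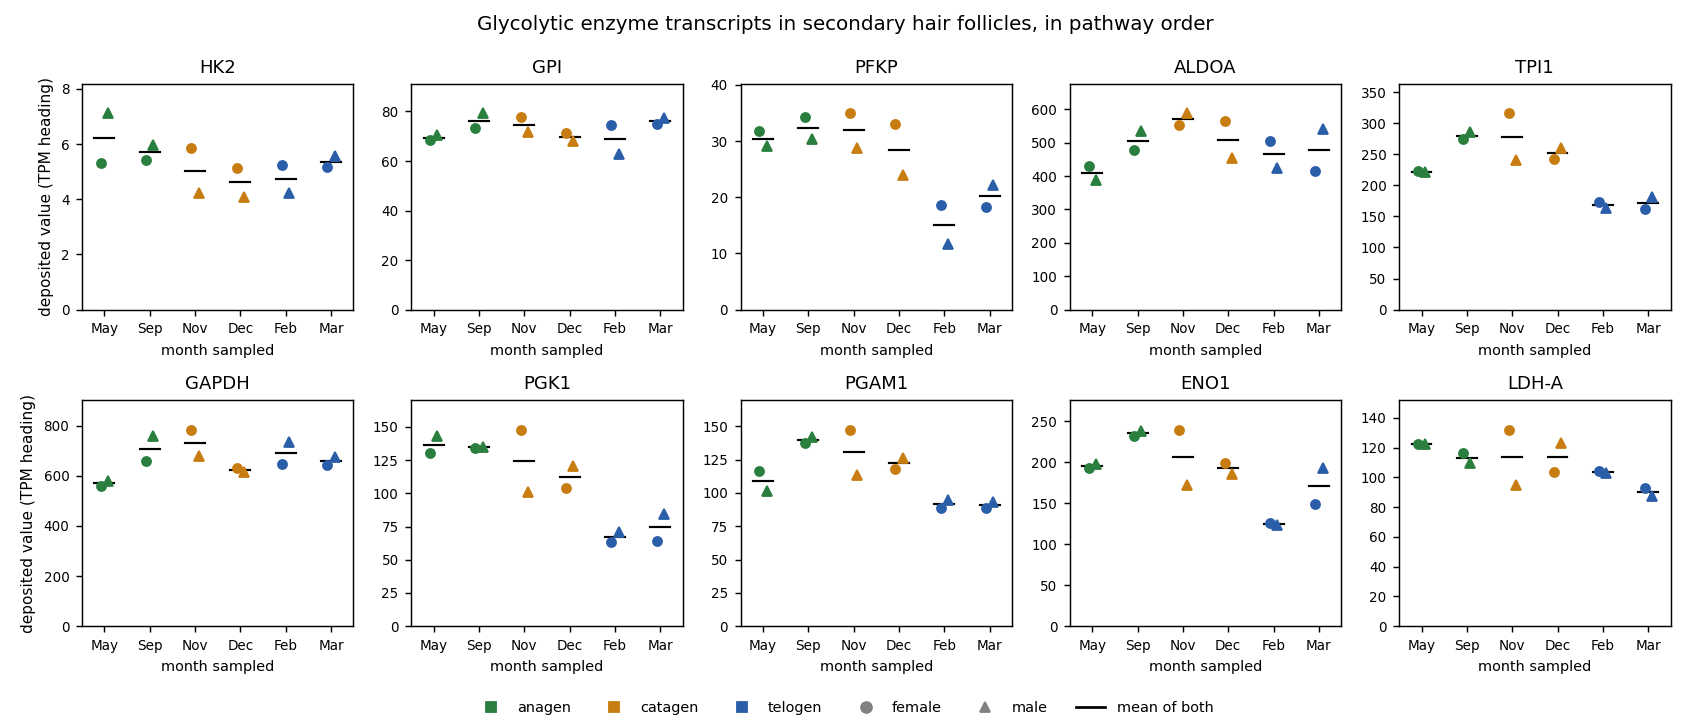
Deposited value (TPM heading, vertical axis from 0) of each enzyme against the month sampled, with 1 female (circle) and 1 male (triangle) library per month, colours for stage and a bar for the mean of both. PFKP, TPI1, PGK1 and PGAM1 are lower in all 4 telogen libraries than in any other library, whereas HK2, GPI, ALDOA and GAPDH overlap between the stages.

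Telogen was compared with catagen to set the resting follicle beside the regressing one. Of the 9 enzymes 5 fell and 0 rose: PFKP, TPI1, PGK1, PGAM1 and ENO1. GAPDH, ALDOA, GPI and HK2 did not pass the test. Over all genes tested 19% were lower and 24.5% higher in this comparison, which is 3063 and 3948 genes (with all libraries scaled to the same sum, 2058 and 4371). The median log2 difference of the 9 was -0.44 against 0.07 for all 16095 genes tested. The test was limma's moderated linear model on log2(value + 1) with Benjamini-Hochberg adjustment over all genes, and a log2 difference here is always on that scale.

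PGK1 (gene ID 102185725), which makes the first ATP of the payoff phase, had 147.84, 101.04, 104.17 and 120.86 in the November female, November male, December female and December male. In telogen it had 63.01, 71.18, 63.95 and 84.72 in the February female, February male, March female and March male. Every telogen library lay below every catagen library, and the March male was the highest of the 4. PGK1 fell by 0.73 log2 units (SE 0.129, adjusted p = 0.00125 by limma, n = 4 per stage), to 59.7% of its catagen mean.

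PFKP (gene ID 102190144), one of the isoforms that commit fructose 6-phosphate to glycolysis, had 34.97, 28.84, 33.00 and 23.88 in the catagen libraries in the same order. It had 18.57, 11.60, 18.22 and 22.20 in the telogen libraries. The groups did not overlap, but the December male and the March male came close. PFKP fell by 0.76 (SE 0.167, adjusted p = 0.00361 by limma), to 58.5% of the catagen mean.

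TPI1 (gene ID 102168433) had 316.06, 240.68, 242.71 and 259.58 in catagen. It had 172.40, 163.96, 161.92 and 180.85 in telogen. The telogen libraries were close together and all well below catagen. TPI1 fell by 0.63 (SE 0.122, adjusted p = 0.00194 by limma), to 64.1% of the catagen mean.

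PGAM1 (gene ID 102171124), the phosphoglycerate mutase of most tissues, had 147.43, 113.56, 118.05 and 126.44 in catagen. It had 88.33, 94.36, 88.95 and 92.93 in telogen, a narrow range below all catagen libraries. PGAM1 fell by 0.46 (SE 0.118, adjusted p = 0.00823 by limma), to 72.1%.

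ENO1 (gene ID 102175881) had 239.99, 173.00, 199.86 and 185.58 in catagen and 125.45, 123.02, 149.63 and 193.38 in telogen. The March male lay inside the catagen range, and the other telogen libraries lay below it. ENO1 fell by 0.44 (SE 0.154, adjusted p = 0.0329 by limma), to 74.1%. Its call was the least steady: 9 of 22 alternatives ended it, among them quantile normalization, both rescalings to equal sums and leaving out the November female, December female, February female, February male or March female, with adjusted p up to 0.138. The calls of PGK1, PFKP, TPI1 and PGAM1 were kept in 22 of 22 alternatives, with adjusted p up to 0.00531, 0.0142, 0.0166 and 0.0382.

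GAPDH (gene ID 100860872), the enzyme just before PGK1 in the chain, had 784.33, 680.53, 629.80 and 614.24 in catagen and 645.58, 733.50, 645.28 and 676.35 in telogen. The stages overlapped fully, with means of 677 ± 76.8 and 675 ± 41.5. The log2 difference was 0.0003 (95% interval -0.30 to 0.30, adjusted p = 0.999 by limma), and its sign turned in 4 of 22 alternatives, none of them a scaling.

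ALDOA (gene ID 102187016) had 552.36, 588.15, 563.22 and 454.88 in catagen and 503.92, 425.37, 416.27 and 540.42 in telogen. These ranges overlapped, and the log2 difference was -0.20 (95% interval -0.51 to 0.11, adjusted p = 0.282 by limma). GPI (gene ID 102189150) was almost level, with 72.2 ± 4.09 and 72.5 ± 6.55 and a log2 difference of 0.0028 (95% interval -0.19 to 0.20, adjusted p = 0.984 by limma). HK2 (gene ID 102168356), the inducible hexokinase, had 4.82 ± 0.835 and 5.05 ± 0.566 with a log2 difference of 0.06 (95% interval -0.21 to 0.34, adjusted p = 0.715 by limma). LDH-A, which reduces pyruvate to lactate, was at 113 ± 17.0 and 97.0 ± 8.20, a log2 difference of -0.22 (95% interval -0.46 to 0.03, adjusted p = 0.133 by limma). The direction of HK2 turned with quantile normalization.

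**Figure D2:**
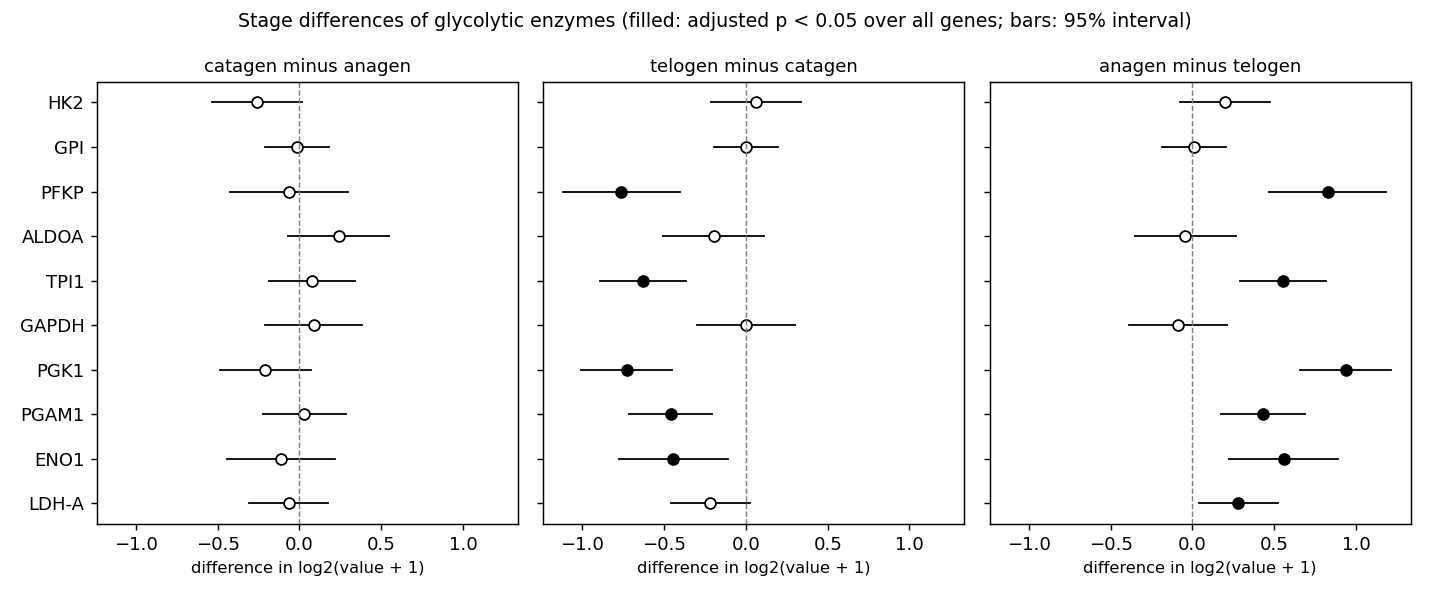
Difference between stages in log2(value + 1) (horizontal axis) for each enzyme (vertical axis, in pathway order), from limma with 4 libraries per stage; bars are 95% intervals and filled points have adjusted p below 0.05 over all genes. PFKP, TPI1, PGK1, PGAM1 and ENO1 lie below 0 in telogen against catagen and above 0 in anagen against telogen, where LDH-A is also filled, and no point is filled in catagen against anagen.

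Other measures of the libraries moved between the same stages. The mitochondrial genome and ribosomal protein shares given above differed between catagen and telogen. With libraries scaled to equal sums after those 2 gene groups were set aside, the log2 differences were -0.69 for PGK1, -0.73 for PFKP, -0.59 for TPI1, -0.42 for PGAM1 and -0.40 for ENO1. Without the March male they were -0.82, -0.88, -0.66, -0.47 and -0.58. Of the hair shaft and inner root sheath markers 7 of 9 fell and 0 rose, and their summed level was 13226 to 20028 in catagen and 3761 to 12957 in telogen. Of 11 immune cell markers 7 rose and 0 fell, with sums of 47.4 to 59.8 and 71.4 to 111. No marker of either list was at 0 in all libraries of a stage. Over all genes 19% fell and 24.5% rose. The other marker lists had fewer calls. Epidermis and endothelium each had 1 of 10 higher and 2 lower, and fibroblasts 0 of 10 called. Smooth muscle had 0 of 8 higher and 2 lower, and sebaceous gland and adipocyte 2 of 10 higher and 0 lower. Skeletal muscle had 1 of 17 higher and 1 lower, and red blood cells 1 of 5 higher and 0 lower. The part of these cell type markers in the enzymes' change was not tested.

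The growing follicle was then set against the resting one. The telogen libraries are the same as in the comparison above, so the values are given side by side and not as a second line of evidence. Of the 9 enzymes 5 were higher in anagen and 0 lower, beside 23.7% higher and 29.2% lower of all genes. The median log2 difference of the 9 was 0.43 against -0.07 for all genes. PGK1, PFKP, TPI1, PGAM1 and ENO1 were the 5. Hair shaft and inner root sheath markers had 8 of 9 higher and 0 lower, and mitochondrial genome transcripts 0 of 13 and 13. Immune cells had 0 of 11 higher and 6 lower, and endothelium and sebaceous gland and adipocyte 1 of 10 and 5 each. Epidermis had 4 of 10 higher and fibroblasts 3 of 10, with 0 lower in both. Skeletal muscle had 4 of 17 higher and 1 lower, smooth muscle 0 of 8 and 1, and red blood cells 1 of 5 and 1. Their part in the enzymes' difference was not tested.

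PGK1 had 130.12, 143.00, 134.32 and 134.80 in the May female, May male, September female and September male, a tight group far above the telogen range. It was higher in anagen by 0.94 (SE 0.129, adjusted p = 2.07e-04 by limma), 192% of the telogen mean. PFKP had 31.71, 29.06, 34.22 and 30.40 and was higher by 0.83 (SE 0.167, adjusted p = 0.00144), 178% of the telogen mean. Neither gene overlapped with telogen.

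ENO1 had 192.61, 198.56, 232.57 and 238.19, so that the May female was just below the March male of telogen. It was higher by 0.56 (SE 0.154, adjusted p = 0.00865 by limma). TPI1 had 222.92, 220.94, 274.95 and 284.92 and was higher by 0.55 (SE 0.122, adjusted p = 0.00250 by limma). PGAM1 had 116.39, 101.37, 137.16 and 142.06 and was higher by 0.43 (SE 0.118, adjusted p = 0.00863 by limma). In TPI1, PGAM1 and ENO1 both September libraries were above both May libraries. All 5 calls were kept in 22 of 22 alternatives, with adjusted p up to 0.0390.

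GAPDH had 559.78, 579.88, 658.89 and 759.45 in anagen, with a log2 difference from telogen of -0.09 (95% interval -0.39 to 0.21, adjusted p = 0.618 by limma). ALDOA had 429.33, 389.00, 479.21 and 533.21, with -0.04 (95% interval -0.35 to 0.26, adjusted p = 0.814). Without both May libraries the differences of GAPDH and ALDOA turned to 0.07 and 0.11. GPI had 72.8 ± 4.78, with 0.01 (95% interval -0.19 to 0.21, adjusted p = 0.934), and its direction turned under all 3 other scalings. HK2 had 5.96 ± 0.822, with 0.20 (95% interval -0.07 to 0.47, adjusted p = 0.201). These 4 overlapped between the stages. LDH-A, at 118 ± 5.96 against 97.0 ± 8.20, was higher by 0.28 (SE 0.112, adjusted p = 0.0491 by limma), a call lost in 16 of 22 alternatives, with adjusted p up to 0.240.

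Catagen against anagen compared the regressing with the growing follicle. None of the 9 enzymes passed in limma, and none had an unadjusted p below 0.05, beside 0.0559% of all genes called in either direction. The log2 differences ran from -0.26 for HK2 (95% interval -0.54 to 0.01, adjusted p = 0.333) to 0.24 for ALDOA (95% interval -0.07 to 0.55, adjusted p = 0.412). PGK1, at 136 ± 5.39 in anagen and 118 ± 21.4 in catagen, differed by -0.21 (95% interval -0.49 to 0.07, adjusted p = 0.429). For the other enzymes, LDH-A among them, the differences were -0.11 for ENO1, -0.07 for PFKP, -0.06 for LDH-A, -0.01 for GPI, 0.03 for PGAM1, 0.08 for TPI1 and 0.09 for GAPDH. The direction of GPI and of PGAM1 turned with 1 of the rescalings each, and that of PGAM1, TPI1 and GAPDH without both May libraries. The median of the 9 was -0.01, against -0.02 over all genes.

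The stages were then taken apart into months, with 2 libraries each. In the F test over the 6 months 5 of the 9 passed (PGK1, TPI1, PFKP, PGAM1 and ENO1, with adjusted p = 0.0121, 0.0151, 0.0203, 0.0313 and 0.0317 by limma), beside 32.7% of all genes. February against December gave 4 lower and 0 higher, beside 16.6% of all genes called in either direction (1433 higher and 1238 lower, or 990 and 1592 with libraries scaled to equal sums without mitochondrial genome and ribosomal protein genes). PFKP fell by 0.89 (SE 0.224, adjusted p = 0.0301), PGK1 by 0.74 (SE 0.198, adjusted p = 0.0352), ENO1 by 0.63 (SE 0.179, adjusted p = 0.0412) and TPI1 by 0.58 (SE 0.156, adjusted p = 0.0359). PGAM1 went from a mean of 122 to 91.3 and did not pass (adjusted p = 0.0754).

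These month calls rested on few libraries. Without the December female, the December male or the February male 0 of the 4 remained called. With either May library, either September library or the February female left out, 1 did, that of PFKP. Over all genes the calls also fell, from 2671 to 42 (December female), 19 (December male) and 22 (February male). The other settings named gave 970 to 1752. May against March gave 1 higher, PGK1 by 0.88 (SE 0.198, adjusted p = 0.0144 by limma), beside 27.4% of all genes. That count was 0 without the May female, the May male or the March female, and 2 without either February library. In the settings with 0, the calls over all genes went from 4402 to 225, 382 and 1432. The F test count was 1 without the February male, and 3 without either May, either September or either December library or the February female. Over all genes the F test calls went from 5259 to 2344 without the February male.

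The remaining steps gave no call among the 9. These were September against May (0.137% of all genes called), November against September (0.0186%), December against November (0%) and March against February (0.00621%). The members with an unadjusted p below 0.05 in limma numbered 1, 0, 0 and 1. ENO1 went from 124 in February to 172 in March as means of 2 libraries, with the March male accounting for the highest value. From May to September the median log2 difference of the 9 was 0.27, with PGAM1 at 0.36, TPI1 at 0.33, GAPDH at 0.31 and ALDOA at 0.31 (adjusted p = 0.480 to 0.637). Over all genes the median of this step was -0.0031, and -0.17 with all libraries scaled to the same sum. From February to March it was -0.0073, and 0.14 under that scaling. The members' differences from May to September are on the deposited values and are not comparable with the rescaled median. Library sums were 956772 and 917211 in May and 1058905 and 1076815 in September. The 9 took 0.184% and 0.190% of the signal in May and 0.192% and 0.205% in September. Males and females were compared with month as a block. None of the 9 passed in limma and none had an unadjusted p below 0.05, beside 0.0559% of all genes, and the largest log2 difference was -0.23 in PFKP (males 24.3, females 28.4, adjusted p = 0.682).

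The 5 enzymes that fell in telogen were correlated over the 12 libraries. Pearson's r of their log2 values was 0.75 to 0.97 in the 10 pairs, highest between TPI1 and PGAM1. GAPDH correlated with those 5 at -0.13 to 0.31, ALDOA at 0.08 to 0.42, GPI at 0.12 to 0.48, HK2 at 0.10 to 0.49 and LDH-A at 0.46 to 0.75. These figures describe 12 libraries that share stages and scaling and are not a test. The 5 were picked by their fall in these same libraries, so their high correlations follow in part from that choice. By the likeness of the log2 profile to the mean profile of the 9 members, the nearest of 10448 genes were MCRIP2 (r = 0.97), NDUFS7 (r = 0.97), MRPL12 (r = 0.97), RRS1 (r = 0.97) and FBXW5 (r = 0.97). The 10448 leave out every gene of the pathway and marker lists, LOC symbols and genes with a mean below 5. Given the low correlations above, the mean profile does not describe GAPDH, ALDOA, GPI or HK2. NDUFS7 is a core subunit of respiratory complex I, MRPL12 belongs to the mitochondrial ribosome and RRS1 takes part in ribosome assembly. MCRIP2 had means of 58.8, 59.3 and 21.7 in anagen, catagen and telogen, and NDUFS7 had 94.2, 96.4 and 64.6.

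Levels of successive and alternative enzymes were set against each other as ratios within each library, which a scaling of the whole library leaves nearly unchanged. GAPDH had 4.30, 4.06, 4.91 and 5.63 times the level of PGK1 in anagen and 5.31, 6.74, 6.05 and 5.08 times in catagen. In telogen it had 10.2, 10.3, 10.1 and 7.98 times. All telogen libraries lay above all others. The log2 ratio was higher in telogen than in catagen by 0.73 (exact permutation test, two-sided p = 0.0286, adjusted p = 0.1, n = 4 per stage), and anagen minus telogen was -1.03 (exact permutation p = 0.0286, adjusted p = 0.1). The smallest p that 4 against 4 libraries allow is 0.0286, and with 21 ratio tests 12 would have had to reach it for any to pass.

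LDHB, the lactate dehydrogenase subunit of oxidative tissues, had 99.92, 97.75, 111.23 and 110.0 in anagen, 102.89, 72.18, 79.81 and 90.38 in catagen and 50.83, 56.09, 61.81 and 66.38 in telogen. The telogen libraries were below all others. LDHB fell from catagen to telogen by 0.54 (SE 0.119, adjusted p = 0.00370 by limma), kept in 22 of 22 alternatives, and was higher in anagen than in telogen by 0.83 (SE 0.119, adjusted p = 2.44e-04). LDH-A stood at 1.00 to 1.26 times LDHB in anagen, 1.28 to 1.36 times in catagen and 1.32 to 2.06 times in telogen. For the log2 ratio, anagen minus telogen was -0.55 (exact permutation p = 0.0286, adjusted p = 0.1) and telogen minus catagen was 0.32 (exact permutation p = 0.0857, adjusted p = 0.2). Of the 21 ratio tests 6 had an unadjusted p of 0.0286 and 0 passed after adjustment.

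**Figure D3:**
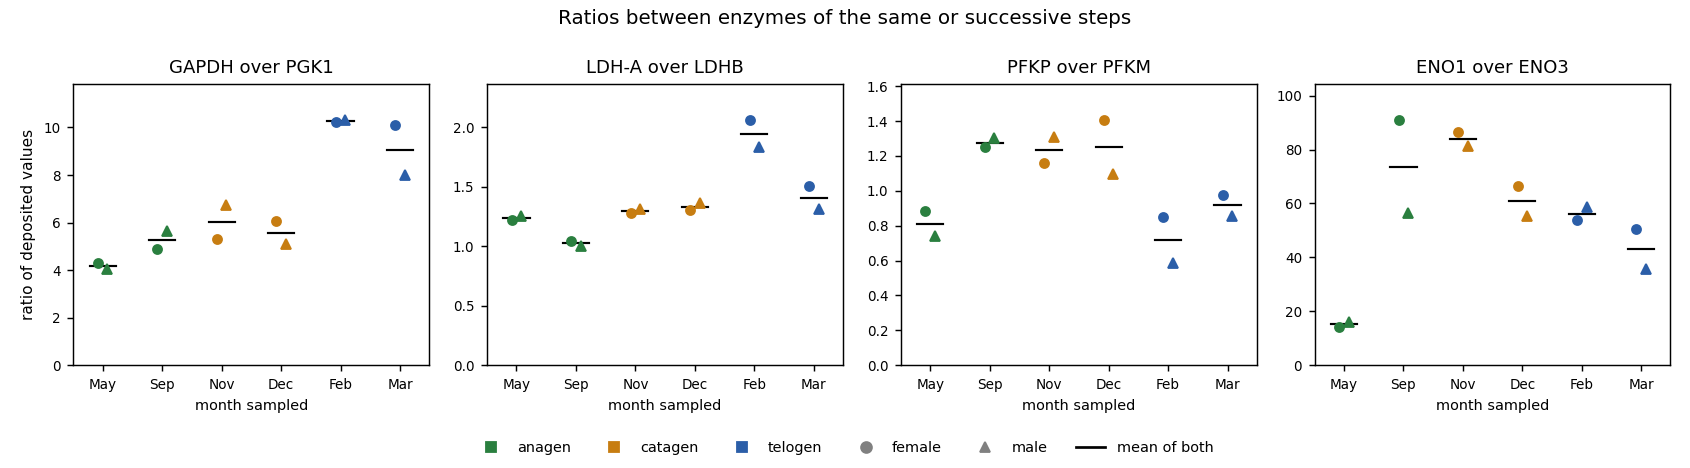
Ratio of the deposited values of 2 enzymes within each library (vertical axis from 0) against the month sampled, with 1 female (circle) and 1 male (triangle) library per month and a bar for their mean. GAPDH over PGK1 is 7.98 to 10.3 in telogen and 4.06 to 6.74 elsewhere, and ENO1 over ENO3 is 14.3 and 16.1 in May against 35.6 or more in the other months.

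Among 15 tested genes of a list of other glycolytic enzymes, 1 rose and 1 fell from catagen to telogen. In anagen against telogen 5 were higher and 0 lower. Most are isozymes of the members' steps, but the list also holds enzymes of other steps, such as PKM and LDHD. LDHD was among the 5. Over all genes 24.5% rose and 19% fell in the first comparison, and 23.7% were higher and 29.2% lower in the second. The median log2 difference of the 15 was -0.03 in the first and 0.29 in the second. PKM, the pyruvate kinase of most tissues and the last ATP-yielding step, had 154 in anagen, 154 in catagen and 163 in telogen (telogen minus catagen 0.06, adjusted p = 0.703 by limma). HK1, the hexokinase of most tissues, had 32.2, 30.0 and 30.3 and stood above HK2 in every library, HK2 being 0.145 to 0.205 of its level. PFKM, the muscle-type phosphofructokinase, was higher in anagen than in telogen by 0.51 (adjusted p = 0.0192), a call lost in 6 of 22 alternatives. PGAM2, the mutase of muscle, was higher by 0.76 (adjusted p = 0.00286), and ENO2, the enolase named for neurons, by 0.56 (adjusted p = 0.0332), the last lost in 9 of 22 alternatives.

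The muscle isozymes peaked in May. ENO3, the enolase of striated muscle, had 13.48 and 12.30 in May and 2.10 to 5.44 in the other 10 libraries, and PFKM had 35.85 and 39.24 against 18.64 to 30.23. PGAM2 had 24.18 and 27.11 against 10.10 to 19.02. The summed level of 17 skeletal muscle markers was 307 to 310 in May and 41.3 to 55.5 elsewhere. ALDOA, also an enzyme of muscle, did not share this peak, with its lowest month mean in May (409). ENO3 did not pass in anagen against telogen (0.94, adjusted p = 0.0574 by limma). Without both May libraries the 5 enzymes that fell in telogen were higher in anagen than in telogen. PGK1 was higher by 0.93, PFKP by 0.87, TPI1 by 0.72, ENO1 by 0.69 and PGAM1 by 0.61. The part of muscle cells in these differences was not tested.

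Transport of glucose and lactate was tested in 14 genes. From catagen to telogen 4 rose and 1 fell, with a median of 0.17, and in anagen against telogen 3 were higher and 2 lower, with a median of -0.12. Over all genes the shares were 24.5% and 19%, then 23.7% and 29.2%, so these counts are no result about transport as a group. SLC2A1, the glucose transporter GLUT1, had 66.8, 68.8 and 58.0 in anagen, catagen and telogen and did not pass (telogen minus catagen -0.24, adjusted p = 0.130 by limma). SLC5A1, the sodium-coupled glucose transporter, rose in telogen from 7.02 to 11.5 (0.65, adjusted p = 0.0100), and SLC2A12, the transporter GLUT12, from 6.42 to 12.2 (0.81, adjusted p = 0.00630). SLC2A3, the transporter GLUT3, was lower in anagen than in telogen (15.6 against 27.4, difference -0.74, adjusted p = 0.0101, lost in 1 of 22 alternatives). SLC16A3, a lactate exporter, was higher in anagen by 0.44 (4.83 against 3.27, adjusted p = 0.0208), as was its chaperone BSG by 0.36 (314 against 244, adjusted p = 0.0246). Those 2 calls were lost in 5 and 7 of 22 alternatives. SLC16A1, another lactate carrier, had 5.14, 5.21 and 6.19 and did not pass (adjusted p = 0.216 for telogen minus catagen).

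Of 13 genes that lead pyruvate into the mitochondrion, 4 fell and 3 rose from catagen to telogen (median 0.05), and 4 were higher and 6 lower in anagen than in telogen (median -0.29). All genes gave 19% and 24.5% in the first comparison and 23.7% and 29.2% in the second, so the counts of the first are close to the background. MPC2, of the mitochondrial pyruvate carrier, fell by 0.69 (58.2 to 35.7, adjusted p = 0.00161 by limma), PDHB of pyruvate dehydrogenase by 0.67 (66.4 to 41.5, adjusted p = 0.00331) and PDHA1, its catalytic subunit, by 0.30 (64.0 to 51.8, adjusted p = 0.0125, lost in 3 of 22 alternatives). DLD was the fourth. The 3 that rose were PDK2, PDK3 and PDK4, kinases that switch pyruvate dehydrogenase off. The 6 lower in anagen than in telogen were these kinases together with PDHX, a component of the complex, and PDP1 and PDP2, phosphatases that switch it on.

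PDK3 had 23.65 to 29.53 in catagen and 31.50 to 43.99 in telogen, without overlap, and rose by 0.52 (adjusted p = 0.00531 by limma). PDK4 had 11.16, 21.69, 18.65 and 17.08 in catagen and 35.47, 31.69, 25.05 and 20.25 in telogen, where the March male overlapped with catagen. It rose by 0.69 (adjusted p = 0.0169), a call lost in 2 of 22 alternatives. PDK1, a known HIF-1 target, had 20.3 and 23.7 and did not pass (0.22, adjusted p = 0.261).

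**Figure D4:**
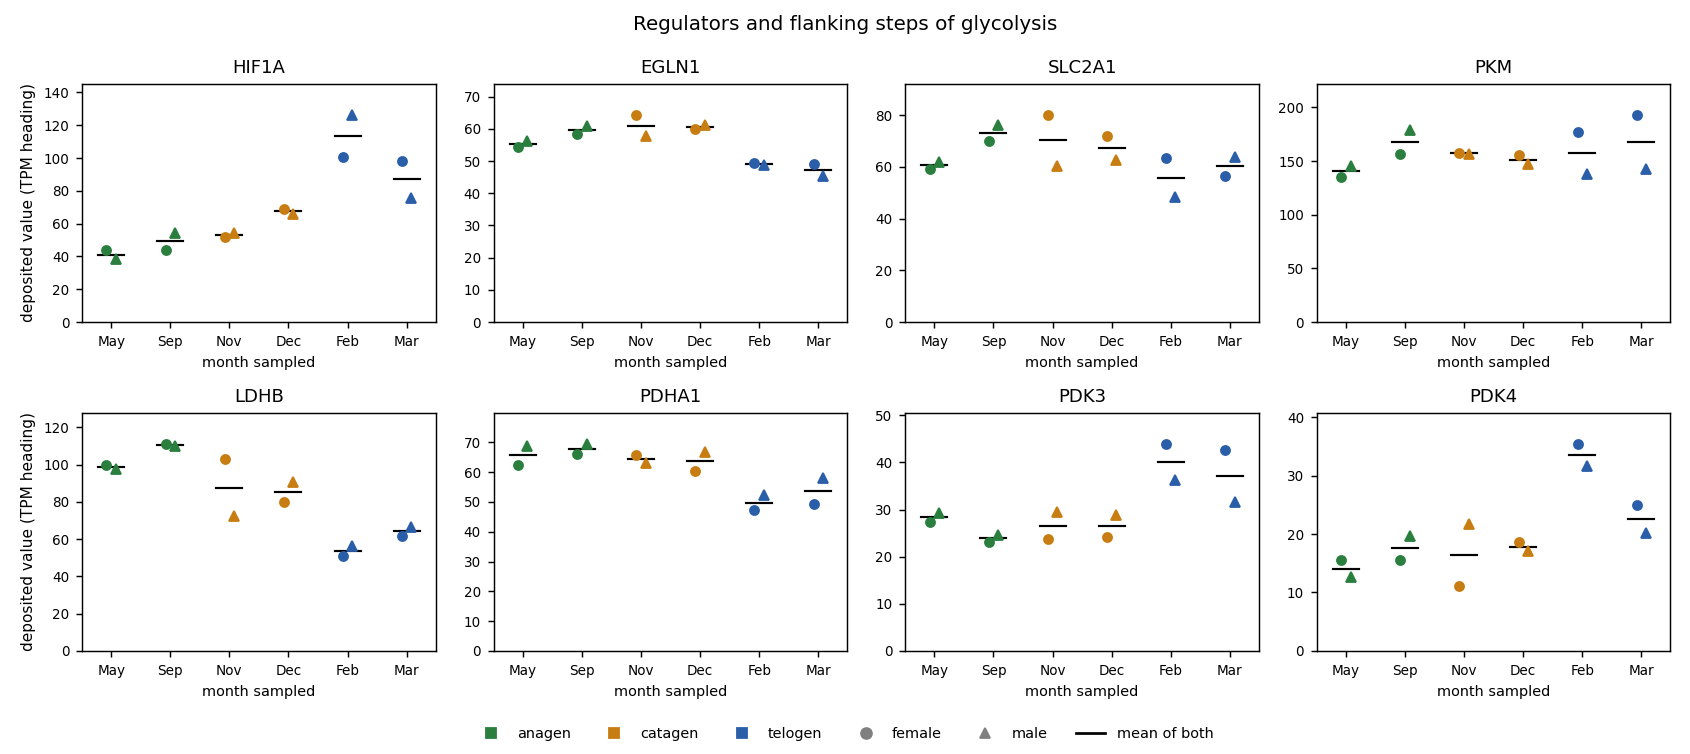
Deposited value (TPM heading, vertical axis from 0) of regulators and flanking enzymes against the month sampled, with 1 female (circle) and 1 male (triangle) library per month and a bar for their mean. HIF1A and PDK3 are highest in the telogen libraries and PDK4 in their mean, EGLN1, LDHB and PDHA1 are lowest there, and SLC2A1 and PKM overlap between stages.

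HIF1A, the oxygen-regulated subunit of HIF-1, rose in telogen. It had 43.69, 38.20, 44.09 and 54.17 in anagen, 52.14, 54.24, 69.12 and 65.76 in catagen and 100.78, 126.42, 98.13 and 75.73 in telogen. Every telogen library was above every other one. HIF1A rose from catagen to telogen by 0.71 (SE 0.155, adjusted p = 0.00347 by limma), and anagen minus telogen was -1.13 (SE 0.155, adjusted p = 2.07e-04). Both calls were kept in 22 of 22 alternatives. EGLN1, a prolyl hydroxylase that marks HIF1A protein for destruction, fell in telogen by 0.33 (60.8 to 48.2, adjusted p = 0.00466, lost in 1 of 22 alternatives). MYC, an activator of glycolytic genes, was lower in anagen than in telogen (27.3 against 52.7, difference -0.94, adjusted p = 8.62e-04), and telogen minus catagen was 0.45 without passing (adjusted p = 0.0505). EPAS1, the related HIF-2 subunit, was lower in anagen than in telogen (38.7 against 48.7, difference -0.33, adjusted p = 0.0191, lost in 4 of 22 alternatives). Of 19 regulators 3 rose and 5 fell from catagen to telogen (median 0.03), and 5 were higher and 7 lower in anagen than in telogen (median 0.00). Over all genes the shares were 24.5% and 19%, then 23.7% and 29.2%, so nothing is read from these counts.

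Among known hypoxia targets outside glycolysis, 15 were tested. Of these, 3 rose and 1 fell from catagen to telogen (median 0.15), and 1 was higher and 5 lower in anagen than in telogen (median -0.24). All genes gave 24.5% and 19%, then 23.7% and 29.2%, so that 3 of 15 higher and 5 of 15 lower are near the background. CA12, a carbonic anhydrase, rose by 0.65 (47.1 to 74.4, adjusted p = 0.00195 by limma). BNIP3L, a mitophagy receptor, was lower in anagen than in telogen (105 against 158, difference -0.57, adjusted p = 0.00516, lost in 1 of 22 alternatives), and DDIT4, an inhibitor of mTOR signalling, was higher by 1.00 (65.6 against 31.6, adjusted p = 0.00133). The fructose bisphosphate control genes gave 1 call among 9 tested. TIGAR, a phosphatase that opposes phosphofructokinase, rose from catagen to telogen by 0.75 (20.8 to 36.1, adjusted p = 6.51e-04), without overlap. PFKFB3, which makes the activator of phosphofructokinase, had 10.9, 9.71 and 9.49 in the 3 stages and did not pass.

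In the pentose phosphate pathway, which branches from glucose 6-phosphate, 4 of 7 genes fell from catagen to telogen (median -0.42, beside 19% of all genes). PGD fell by 0.43 (61.4 to 45.3, adjusted p = 0.00491 by limma) and PGLS by 0.43 (32.7 to 23.8, adjusted p = 0.0184, lost in 4 of 22 alternatives). In anagen against telogen 4 of the 7 were higher (PGD, PGLS, H6PD and RPIA) and 1 lower, with a median of 0.35, beside 23.7% and 29.2% of all genes. The 1 was TKT of the non-oxidative branch, lower in anagen than in telogen (96.3 against 147, difference -0.62, adjusted p = 0.00401, lost in 1 of 22). In the citric acid cycle 6 of 19 fell and 1 rose (median -0.13, beside 19% and 24.5% of all genes), IDH3B falling by 0.42 (73.0 to 53.7, adjusted p = 0.00772) and SUCLA2 by 0.40 (81.7 to 62.4, adjusted p = 0.0250, lost in 6 of 22). In anagen against telogen 6 of the 19 were higher and 3 lower (median 0.07, beside 23.7% and 29.2% of all genes). IDH3B was higher by 0.59 (adjusted p = 7.70e-04). MDH2, malate dehydrogenase, was lower in anagen than in telogen (108 against 155, difference -0.53, adjusted p = 0.00283, lost in 1 of 22).

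Of 14 glycogen genes 4 rose and 1 fell from catagen to telogen (median 0.02), and 4 were higher and 4 lower in anagen than in telogen (median -0.16). They stand beside 24.5% and 19%, then 23.7% and 29.2%, of all genes, and nothing is read from them. PYGL, a glycogen phosphorylase, rose by 0.37 (68.6 to 89.2, adjusted p = 0.0311 by limma, lost in 7 of 22 alternatives), and PGM2, a phosphopentomutase that also acts on glucose phosphates, by 0.45 (22.3 to 30.6, adjusted p = 0.0156). Of 15 nuclear ATP synthase subunits 8 fell and 0 rose from catagen to telogen (median -0.55), and 7 were higher and 0 lower in anagen than in telogen (median 0.40). Beside them, 19% of all genes fell and 24.5% rose in the first comparison, and 23.7% were higher and 29.2% lower in the second. ATP5A1 fell by 0.78 (359 to 209, adjusted p = 0.00194) and ATP5B by 0.55 (378 to 259, adjusted p = 0.0105).

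Several of the glycolytic genes, GAPDH in particular, are known to have near-identical processed copies in mammalian genomes. How the deposited values divided reads among such copies is not given in the sources used here, so the absolute levels of GAPDH, PGK1, TPI1, PGAM1, ENO1 and LDH-A are uncertain to that extent.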

How the data were processed

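Secondary hair follicle RNA (12 libraries) was sequenced by the authors. The submitters' processing notes name the tools kallisto 0.46.1 and sleuth 0.30.0, without their settings. The genome build and the scaling between libraries are not given in the sources used here. The deposited signal values, headed TPM per the file headers, differ in their library sums, so they are not plain TPM and carry no depth. Symbols were taken by gene ID from the RefSeq gene table of ARS1.2, which matched 20294 of 20326 genes. The members and gene lists were chosen with earlier results of these data known.

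Tests covered the 16095 genes that reached 1 in 2 or more libraries, as log2(value + 1) in limma 3.58.1 (R 4.3.3, trended variance), with stages or months as groups, and sex with month as a block. A call is an adjusted p below 0.05. Adding 1 understates changes of low genes. Ratios were tested by exact permutation over samples. Named genes are all members, up to 4 called genes of highest mean per pathway list, and 13 fixed genes; DLD, PDK2, PDHX, PDP1, PDP2, H6PD and RPIA were named after their values were seen, and 1 pentose phosphate pathway result is not reported here. Alternatives were other scalings, filters and pseudocounts, a replicate block, averaged months and leaving out libraries. No 2 libraries had equal values in more than 1.55% of tested genes.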

Additional observations from a re-analysis of the deposited data

How the results depend on the processing

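Of 249 counts of called enzymes under alternatives 227 stayed within 1.5 times the main count and 22 did not. With 1 library left out, the count ranged from 4 to 5 for telogen against catagen, 5 to 5 for anagen against telogen, 1 to 5 for the F test, 0 to 4 for February against December and 0 to 2 for May against March, and stayed at 0 in the other comparisons. Without both May libraries, February against December gave 1. The calls over all genes also fell, at the lowest to 19 for February against December and 225 for May against March. The replicate number in the labels marks sex. Same-numbered libraries' deviations from their stage means correlated at 0.051 on average (-0.154 to 0.241, 8 of 24 pairs over 0.1). Differently numbered libraries gave -0.051 (-0.296 to 0.327, 4 of 24 pairs over 0.1). Deviations from a stage mean cancel within the stage, so the averages nearly mirror each other, and month differences remain in them. They therefore cannot show whether animals were shared between months, and the numbers were not taken to pair the samples. With the replicate block 5 and 5 enzymes were called in the telogen comparisons, among 7074 and 8624 genes, and LDH-A lost its call.

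Of 660 single enzyme values 603 kept their direction and side of the threshold, 25 lost their call and 32 turned, none of these a called value. Of 357 ratio values 353 kept their direction and 4 turned. Turned log2 differences were, for catagen minus anagen, 0.0338 for GPI (equal sums without mitochondrial and ribosomal genes), -0.0168 for PGAM1 (equal sums), and -0.0888, -0.0694 and -0.1497 for TPI1, GAPDH and PGAM1 (without both May libraries). For telogen minus catagen they were -0.0106 for HK2, -0.0236 for HK2 over HK1 and 0.0373 for ALDOA over ALDOC (quantile normalization). For anagen minus telogen they were -0.0173, -0.0372 and -0.0786 for GPI (quantile normalization, equal sums, equal sums without those genes), 0.1091 and 0.0691 for ALDOA and GAPDH (without both May libraries) and 0.1186 for ENO1 over ENO3 (pseudocount 10). The cause was not tested. With 1 library left out, catagen minus anagen ranged from -0.0491 to 0.0284 for GPI, -0.1386 to 0.0387 for PFKP, -0.01 to 0.142 for TPI1, -0.0629 to 0.098 for PGAM1 and -0.1414 to 0.0157 for LDH-A. Telogen minus catagen ranged from -0.0001 to 0.1436 for HK2, -0.0293 to 0.0693 for GPI, -0.0443 to 0.073 for GAPDH and -0.3842 to 0.0231 for ALDOA over ALDOC. Anagen minus telogen ranged from -0.0564 to 0.0421 for GPI and -0.1206 to 0.0307 for ALDOA. Read depth is unknown, so no counting error could be given for low genes such as HK2.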
